A study of Mus musculus with 4 samples.

Results

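Inhibitory transmission onto retinal amacrine cells is read out by GABA-A, GABA-rho and glycine receptors, and the RNA of 27 genes for their subunits and postsynaptic scaffolds is described here, out of 55471 genes in the count table. The genes were taken by name from the table: 13 GABA-A subunits (5 alpha, 2 beta, 2 gamma and Gabrd, Gabre, Gabrq and Gabrp), 3 rho subunits, 4 glycine receptor alpha subunits, the glycine receptor beta subunit Glrb, and 6 scaffold or auxiliary genes. All 27 were found, and other GABA-A subunits were not analysed here. Values are given for amacrine cells sorted from dissociated retinas of C57BL6 mice at postnatal days 6 to 7. All mice carried the allele Gbx2-CreERT2-IRES-EGFP, in which Gbx2 drives a tamoxifen-inducible Cre and EGFP, and the Ai9 reporter, whose tdTomato stays on in any cell that Cre has recombined and in its progeny. The tdTomato cells were divided by GFP into a GFP-positive fraction (cell type 2 in the series, replicates 2 and 3) and a GFP-negative fraction (cell type 1, replicates 2 and 6). The comparison asks how the receptor makeup of the GFP-positive cells differs from that of the GFP-negative cells. Each library came from 750 to 2500 sorted cells, per the series text. That text states 4 biological replicates originating from 3 litters, and the sample labels used here do not assign litters to libraries. Both fractions share the alleles and the tdTomato gate, and whether replicate 2 is the same animal in both is not stated.

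GABA-A and glycine receptors are pentameric chloride channels. The subunits in a GABA-A receptor set its kinetics, its place at or outside the synapse and its drug sensitivity, while rho subunits form slow, persistent receptors best known from bipolar cell terminals. In glycine receptors, alpha subunits form the channel and the beta subunit binds the scaffold protein gephyrin, which also holds GABA-A receptors at synapses. The retina uses both transmitters, and amacrine cells both release and receive them.

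Library totals ran from 41040667 to 44689917 counts. By a chi-square of their counts per degree of freedom, GFP-positive replicate 2 lay nearer to GFP-negative replicate 2 (130.9) than to GFP-positive replicate 3 (146.2), and GFP-negative replicate 6 lay farther from each of the others (176.9 to 506.4) than these 2 pairs. Gbx2, the gene behind the GFP sort, was at 602 and 496 CPM in the GFP-positive libraries and at 28.6 and 55.5 CPM in the GFP-negative libraries (log2 fold change 3.71 ± 0.44, standard error, edgeR adjusted p = 0.0118). CPM is counts per 1000000 of the effective (TMM-scaled) library size, and fold changes are GFP-positive over GFP-negative throughout. All 12 amacrine markers had counts. Their sum was 2808 and 1893 CPM in GFP-positive replicates 2 and 3, against 4357 and 6563 CPM in GFP-negative replicates 2 and 6, although Pax6, a transcription factor gene of amacrine cells, had overlapping fractions (1970 and 1285 CPM, against 1468 and 2244 CPM). Tfap2a, another such gene, had 14.1 and 16.8 CPM in GFP-positive libraries, against 41.9 and 51.6 CPM in GFP-negative libraries (edgeR adjusted p = 0.0813). Markers of other cell types differed in level as well. The 16 rod markers summed to 9953 and 16522 CPM in the GFP-positive libraries, against 8675 and 2139 CPM in the GFP-negative libraries, and none of them was at 0 in every library. The 12 bipolar markers summed to 1385 and 1950 CPM, against 1146 and 451 CPM. Marker by marker, 12 rod and 8 bipolar markers were higher in both GFP-positive libraries, 0 and 1 were lower and 4 and 3 overlapped. Of the amacrine markers 10 were lower, 1 (Slc6a9, a glycine transporter gene) was higher and 1 overlapped. Over all 17940 genes tested, 22.5% were higher and 21.3% lower in GFP-positive libraries without overlap. Sums of 10 Mueller glia, 9 ganglion cell and 5 horizontal cell markers were lower in both GFP-positive libraries, but each rested on 1 gene and overlapped without it. These were Dkk3 (503 and 776 CPM without it, against 690 and 516 CPM), Nefl (128 and 65.6 CPM, against 113 and 114 CPM) and Tfap2b, also an amacrine marker (49.2 and 25.6 CPM, against 26.3 and 20.7 CPM). The 11 endothelial and pericyte markers summed to 438 and 425 CPM, against 104 and 78.8 CPM, mostly through Igfbp7 (316 and 311 CPM, against 8.36 and 14.3 CPM), and 8 of the 11 overlapped. The part of these differences in the results below was not tested, and in sorted bulk RNA fewer cells of a type and less RNA per cell cannot be told apart.

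Every receptor class was present in both fractions, and no member passed edgeR's threshold of an adjusted p of 0.05. The estimate was below 0, lower in GFP-positive cells, for 9 of 10 GABA-A subunits tested and for Glra1, Glra2, Glra3 and Glrb, and above 0 for the 3 rho subunits. Leaving out 1 library turned the sign for Gabra2, Gabra5, Gabrd, Glra1 and Gabrr2. Among scaffold and auxiliary genes, mean CPM of Gphn, Nlgn2, Lhfpl4 and Clptm1 differed by at most 1.53-fold between fractions. That of Shisa7 was 2.54-fold lower in GFP-positive cells, and that of Iqsec3 1.58-fold higher. Of the 27 genes, 23 passed the filter on low counts, and 0 of these 23 were called by edgeR, where 1.10% of all 17940 genes tested were called. At an unadjusted p under 0.05 there were 12 members, 10 lower and 2 higher in GFP-positive cells, against 12.6% of all genes tested (7.34% lower and 5.24% higher). limma-voom called 0 members (0.730% of all genes), and DESeq2 called 9, all lower: Gabra3, Gabra4, Gabrb1, Gabrg1, Gabrg3, Gabrq, Glra2, Glra3 and Shisa7 (3.26% of all genes were called lower). edgeR called Gabra4 and Gabrb1 lower under RLE scaling (1.28% of all genes lower), under upper-quartile scaling (1.10%) and under a stricter filter (1.65%), and Gabrb1 alone with library size only (0.808%). Without GFP-negative replicate 2 it called 5 members lower, Gabra2, Gabra3, Gabra4, Gabrb1 and Glra2 (1.17%). The CPM ranges of the fractions did not overlap for 13 of the 23, against 43.8% of all genes tested. Of these, 3 were higher (Gabrr1, Gabrr3 and Iqsec3; 22.5% of all genes) and 10 lower (21.3%). The members' median log2 fold change of -0.93 (0.04 over all genes) was -0.24 without GFP-negative replicate 6 and -1.59 without GFP-positive replicate 2. Exact permutation of 2 against 2 libraries gives no two-sided p under 0.333, and edgeR's p rests on spread shared across genes.

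**Figure D1:**
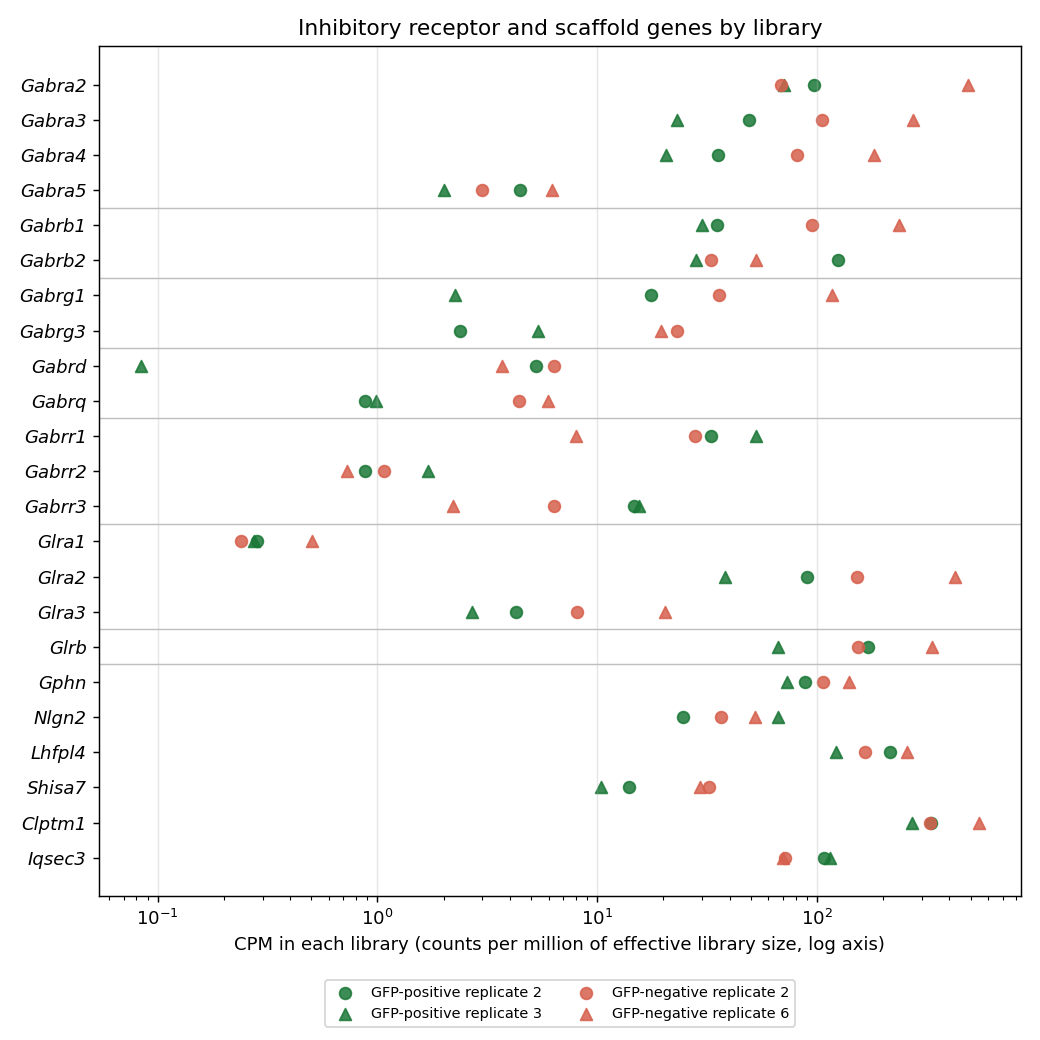
Level of each of the 23 tested genes in each library, in CPM on a log axis, with green for GFP-positive and red for GFP-negative libraries and lines between receptor classes. Gabra3, Gabra4, Gabrb1, Gabrg1, Gabrg3, Gabrq, Glra2 and Glra3 lie to the left in both green libraries, as do Gphn and Shisa7, whereas Gabrr1, Gabrr3 and Iqsec3 lie to the right.

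Among the alpha subunits, which bind GABA together with beta subunits and set much of a receptor's pharmacology, Gabra2, Gabra3 and Gabra4 carried the RNA in both fractions. Gabra3 (chromosome X, 72432681 to 72656848) had 49.2 and 23.1 CPM in GFP-positive replicates 2 and 3, against 105 and 272 CPM in GFP-negative replicates 2 and 6. Gabra4, an alpha subunit of receptors that also sit outside synapses, had 35.5 and 20.5 CPM in GFP-positive cells, against 81.3 and 182 CPM in GFP-negative cells. For both genes every GFP-positive library was below every GFP-negative library. Their log2 fold changes were -2.38 (95% interval -3.59 to -1.17, edgeR adjusted p = 0.0889) for Gabra3 and -2.23 (-3.28 to -1.19, edgeR adjusted p = 0.0709) for Gabra4. Gabra2, a synaptic alpha subunit, had 97.1 and 70.7 CPM in GFP-positive cells, against 68.4 and 486 CPM in GFP-negative cells. Its fractions overlapped, and the higher mean in GFP-negative cells came from replicate 6, which was 7.10-fold above replicate 2. The estimate was 0.30 without replicate 6, in place of a log2 fold change of -1.72 (edgeR adjusted p = 0.378) with all libraries. Gabra5, known for receptors outside the synapse in hippocampus, stayed between 2.00 and 6.22 CPM in all libraries, with overlapping fractions. Gabra6, a subunit of cerebellar granule cells, had 0 counts in all 4 libraries, which allows up to 0.0837 CPM in the library with the highest floor (3 counts, counting error only).

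Beta subunits complete the GABA binding site and are needed for assembly. The ratio of the 2 analysed here did not overlap between fractions. Gabrb1 had 35.1 and 30.1 CPM in GFP-positive cells, against 95 and 235 CPM in GFP-negative cells. Its log2 fold change of -2.34 (95% interval -3.36 to -1.32) had the smallest edgeR adjusted p of the members, 0.0541. Gabrb2, the other beta subunit measured here, had 125 and 28.2 CPM in GFP-positive cells, against 32.9 and 52.8 CPM in GFP-negative cells. Replicate 2 alone set its higher mean in GFP-positive cells, and without that library the log2 fold change was -0.62 in place of 0.84. Levels of different genes were compared per kilobase of exon (RPKM, CPM divided by kilobases of exon). The ratio of Gabrb1 to Gabrb2 was 0.129 and 0.489 in GFP-positive libraries and 1.33 and 2.04 in GFP-negative libraries. The ratio was 6.56-fold lower in GFP-positive cells (exact permutation test p = 0.333, the smallest possible), whichever gene lengths are used. On the log2 scale this difference was -2.71, and it ran from -3.67 to -1.75 when a library was left out. Gabrb2 had the higher level per kilobase in both GFP-positive libraries. Which gene led in GFP-negative cells depended on the lengths: with those of the longest transcript in place of all exons, the ratio was 0.0815 and 0.309 in GFP-positive libraries and 0.839 and 1.29 in GFP-negative libraries, so that it lay under 1 in GFP-negative replicate 2.

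The gamma subunits analysed here, which take part in anchoring and in benzodiazepine binding, had lower levels in both GFP-positive libraries. Gabrg1 had 17.6 and 2.25 CPM in GFP-positive cells, against 35.9 and 117 CPM in GFP-negative cells (log2 fold change -2.95, 95% interval -4.87 to -1.03, edgeR adjusted p = 0.193). Gabrg3 had 2.38 and 5.38 CPM in GFP-positive cells, against 23.1 and 19.5 CPM in GFP-negative cells. Its GFP-negative libraries differed by 1.19-fold, so the gap to the GFP-positive libraries was larger than the spread within either fraction (log2 fold change -2.45, 95% interval -3.64 to -1.26, edgeR adjusted p = 0.0784). Which gamma subunit led in GFP-positive cells was not settled: the ratio of Gabrg1 to Gabrg3 per kilobase was 11.2 and 0.634 there, against 2.36 and 9.11 in GFP-negative cells.

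Less common GABA-A subunits were rare in both fractions. Gabrq, the theta subunit, known from monoamine neurons of the brain, had 0.874 and 0.988 CPM in GFP-positive cells, against 4.42 and 5.94 CPM in GFP-negative cells. These groups did not overlap (log2 fold change -2.47, 95% interval -4.11 to -0.82, edgeR adjusted p = 0.206). Gabrd, the delta subunit of tonic receptors outside synapses, had 5.29 and 0.0841 CPM in GFP-positive cells, against 6.38 and 3.68 CPM in GFP-negative cells, and the GFP-positive libraries differed by 62.9-fold. Gabre, the epsilon subunit, stayed at 8 counts or fewer in every library. Gabrp, the pi subunit of tissues outside the brain, had 0 counts throughout.

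**Figure D2:**
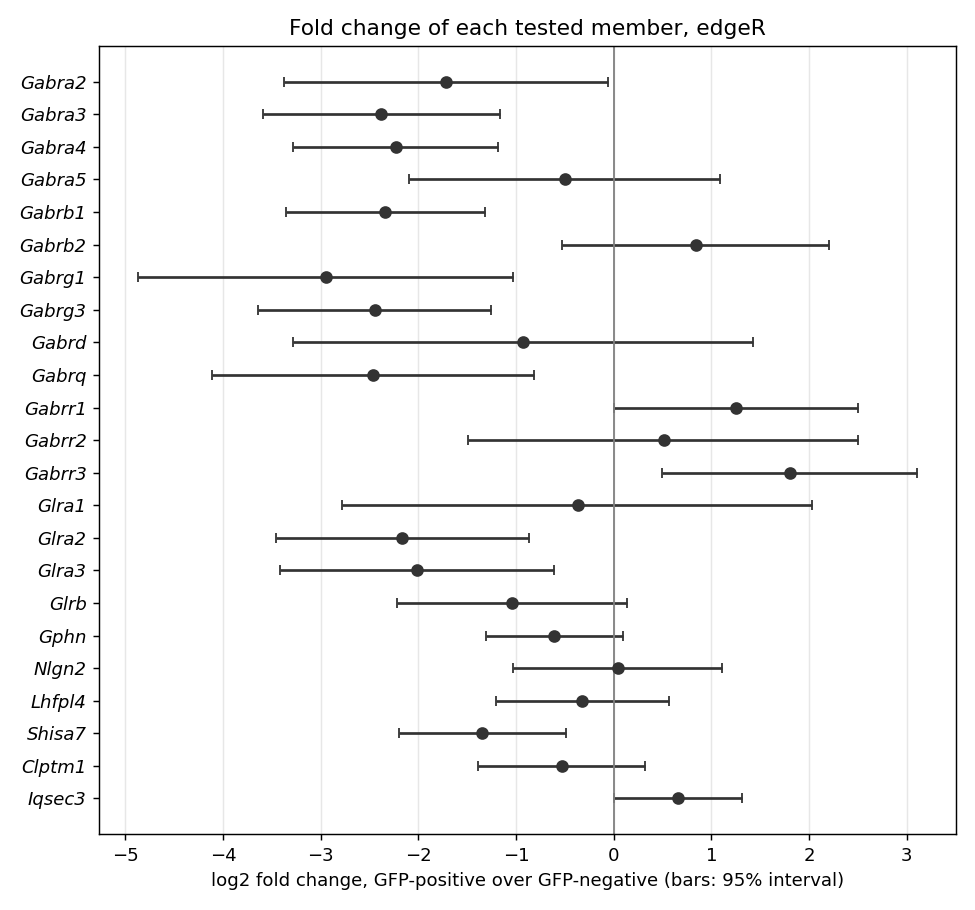
Log2 fold change of each tested gene, GFP-positive over GFP-negative, from edgeR; points are estimates and bars 95% intervals that are not adjusted for the number of genes. Upper ends are at -0.49 or lower for Gabra3, Gabra4, Gabrb1, Gabrg1, Gabrg3, Gabrq, Glra2, Glra3 and Shisa7, and the lower end for Gabrr3 is 0.49.

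Gabrg1, Gabra2, Gabra4 and Gabrb1 are neighbours on mouse chromosome 5 (GRCm38), an ancient cluster of GABA-A genes. Gabrg1 (70751047 to 70842617) and Gabra2 (70957597 to 71095849) lie on the minus strand 115.0 kb apart. Gabra4 (71569749 to 71658308, minus strand) and Gabrb1 (71658113 to 72149037, plus strand) meet head to head, and their exons share 46 bases on opposite strands (0.76% of the exonic bases of Gabra4). Exons of Gabrr3 (6.53%), Gabra5 (4.98%), Glra1 (5.84%) and Gphn (3.92%) overlap other genes on the opposite strand, whose reads cannot be told apart without strand. The estimates of the chromosome 5 genes were all below 0 with all libraries, that of Gabra2 not without GFP-negative replicate 6. Within a library the counts of Gabra4 kept close to those of Gabrb1, at ratios of 1.01 and 0.683 in GFP-positive and 0.856 and 0.776 in GFP-negative libraries, a pair chosen after its values were seen. The other neighbours did not keep that step. The ratio of Gabrg1 to Gabrb1 was 0.502 and 0.0748 in GFP-positive libraries, against 0.378 and 0.498 in GFP-negative libraries. That of Gabra2 to Gabrb1 was 2.77 and 2.35 in GFP-positive libraries, against 0.719 and 2.07 in GFP-negative libraries. Other members also lie together: Gabra3 and Gabrq on chromosome X are 168.3 kb apart, Gabrg3 and Gabra5 on chromosome 7 are 20.5 kb apart, and Gabrr2 and Gabrr1 on chromosome 4 are 36.7 kb apart. Of these neighbours, Gabrg3 had separate fractions and Gabra5 overlapping ones, the same held for Gabrr1 and Gabrr2, and Gabra3 and Gabrq both had separate fractions.

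The promoters of the chromosome 5 genes are shown because the estimates of these neighbours were below 0 with all libraries, so the choice rests on these values. That of Gabra2 was 0.30 without GFP-negative replicate 6. Promoters of Glra2 and Gabrr1, the most abundant glycine receptor alpha and rho subunits, are shown beside them. The estimate of Glra2 was also below 0 (log2 fold change -2.17). Windows run from 250 bases before to 50 after the RefSeq start (GRCm38.p6), 5′ to 3′ on the gene's strand, and capitals mark the TATA box TATAAA, the GC box GGGCGG and the homeodomain core TAATTA on either strand, overlapping matches included.
Gabrg1 (chr5:70842568-70842867, minus strand): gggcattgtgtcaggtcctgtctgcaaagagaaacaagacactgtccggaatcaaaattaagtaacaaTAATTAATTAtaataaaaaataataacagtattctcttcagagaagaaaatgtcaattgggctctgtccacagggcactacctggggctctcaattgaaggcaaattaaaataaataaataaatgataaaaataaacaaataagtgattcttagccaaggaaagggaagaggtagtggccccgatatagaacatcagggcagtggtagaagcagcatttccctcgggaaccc
Gabra2 (chr5:71095800-71096099, minus strand): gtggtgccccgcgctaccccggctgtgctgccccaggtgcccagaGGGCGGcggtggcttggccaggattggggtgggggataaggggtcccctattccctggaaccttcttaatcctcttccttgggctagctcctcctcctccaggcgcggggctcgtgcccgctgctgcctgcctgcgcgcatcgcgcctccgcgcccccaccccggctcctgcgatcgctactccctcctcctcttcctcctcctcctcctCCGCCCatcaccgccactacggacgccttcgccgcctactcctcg
Gabra4 (chr5:71658259-71658558, minus strand): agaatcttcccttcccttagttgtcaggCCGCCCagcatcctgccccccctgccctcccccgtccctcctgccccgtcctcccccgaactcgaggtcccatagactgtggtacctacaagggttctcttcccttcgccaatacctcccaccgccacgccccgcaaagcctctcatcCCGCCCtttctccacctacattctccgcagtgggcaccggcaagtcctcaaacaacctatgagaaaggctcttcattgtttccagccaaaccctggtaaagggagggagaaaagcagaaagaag
Gabrb1 (chr5:71657671-71657970, plus strand): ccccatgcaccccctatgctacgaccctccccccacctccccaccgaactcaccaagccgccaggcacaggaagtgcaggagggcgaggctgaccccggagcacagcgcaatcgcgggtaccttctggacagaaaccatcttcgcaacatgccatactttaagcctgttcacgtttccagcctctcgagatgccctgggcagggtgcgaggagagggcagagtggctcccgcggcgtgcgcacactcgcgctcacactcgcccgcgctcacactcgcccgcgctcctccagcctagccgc
Glra2 (chrX:165327344-165327643, minus strand): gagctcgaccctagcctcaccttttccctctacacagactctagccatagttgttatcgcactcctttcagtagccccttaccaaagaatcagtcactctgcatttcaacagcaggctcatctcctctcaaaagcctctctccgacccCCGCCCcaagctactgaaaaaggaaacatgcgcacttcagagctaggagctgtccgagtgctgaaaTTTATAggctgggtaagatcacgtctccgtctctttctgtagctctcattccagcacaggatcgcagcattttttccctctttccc
Gabrr1 (chr4:33132306-33132605, plus strand): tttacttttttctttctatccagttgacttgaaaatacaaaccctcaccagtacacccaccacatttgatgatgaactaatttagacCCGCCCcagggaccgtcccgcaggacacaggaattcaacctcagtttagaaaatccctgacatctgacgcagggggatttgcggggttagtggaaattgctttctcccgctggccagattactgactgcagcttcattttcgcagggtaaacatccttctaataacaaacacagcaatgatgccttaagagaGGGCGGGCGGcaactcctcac
The neighbours' windows differed in base composition. The Gabra2 and Gabrb1 windows were rich in G and C (70.0% and 66.0%) with 25 CpG each, the Gabra4 window had 58.7% and 12 CpG, and the Gabrg1 window had 38.3% and 3 CpG, against medians of 52.7% and 7 over 32851 promoter windows. TAATTA occurred in the Gabrg1 window, as 2 overlapping matches, and in no other window of the 25 members matched in the table; 5.29% of all windows held it. The GC box occurred in windows of 16 of the 25 members and in 35.7% of all windows. TATAAA occurred in windows of 3, Gabra3, Gabrb2 and Glra2, and in 13.6% of all windows. These are letter matches only, and Gabra3, Gabrb1 and Gabrb2 have more than 1 start in the table, of which the first is shown for Gabrb1.

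Gabrr1 and Gabrr3 had higher levels in both GFP-positive libraries. Gabrr1 (chromosome 4, 33132521 to 33163588) had 32.9 and 52.6 CPM in GFP-positive cells, against 27.8 and 7.98 CPM in GFP-negative cells (log2 fold change 1.25, standard error 0.55, edgeR adjusted p = 0.398). Gabrr3 had 14.7 and 15.5 CPM in GFP-positive cells, against 6.35 and 2.20 CPM in GFP-negative cells (log2 fold change 1.80, 95% interval 0.49 to 3.10, edgeR adjusted p = 0.249). Neither pair of fractions overlapped, but the gap for Gabrr1 between GFP-positive replicate 2 and GFP-negative replicate 2 was small. Gabrr2 was rare at 0.726 to 1.70 CPM, with overlapping fractions. Gabrr1 made up most of the rho RNA per kilobase in each library, with 81.4 ± 3.50% in GFP-positive cells against 83.1 ± 4.01% in GFP-negative cells (SD, n = 2 each here and below), with overlapping fractions. The lesser shares did not overlap. Gabrr3 held 18.8 and 13.2% in GFP-positive libraries, against 10.5 and 11.9% in GFP-negative libraries, and Gabrr2 held 2.27 and 2.95%, against 3.61 and 7.92%, the last on 26 counts. The summed level of the family was 22.9 ± 6.49 RPKM in GFP-positive cells, against 9.26 ± 6.94 RPKM in GFP-negative cells. Gabrr1, Gabrr3 and the summed markers of rods and of bipolar cells, where rho receptors are best known, put the 4 libraries in 1 order. All were highest in GFP-positive replicate 3 and lowest in GFP-negative replicate 6. Iqsec3, a scaffold or auxiliary gene, shared this order. It had 115 and 107 CPM in GFP-positive replicates 3 and 2, against 71.5 and 69.6 CPM in GFP-negative replicates 2 and 6. The share of all genes in this order was not counted. Single bipolar markers did not all share that order. Of the 12, 8 were higher in both GFP-positive libraries, 3 overlapped and 1, Prkca, was lower. Prkca, a marker of rod bipolar cells named after its values were seen, had 88.1 and 102 CPM in GFP-positive libraries, against 125 and 159 CPM in GFP-negative libraries. Whether bipolar RNA accounts for the rho values was not tested.

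**Figure D3:**
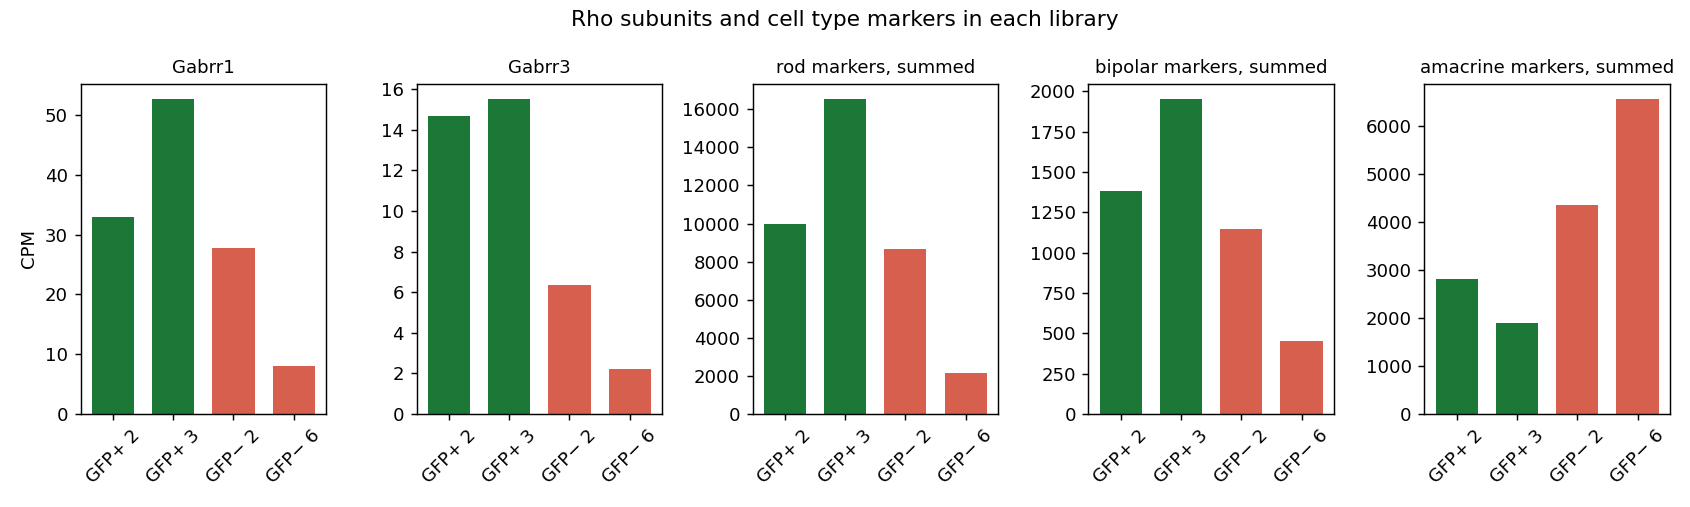
CPM of Gabrr1 and Gabrr3 and summed CPM of 16 rod, 12 bipolar and 12 amacrine markers (vertical axes from 0) in GFP-positive replicates 2 and 3 (green) and GFP-negative replicates 2 and 6 (red). Gabrr1 and Gabrr3 follow the order of the rod and bipolar sums, and the amacrine sum runs in the opposite order.

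Glycine receptor RNA was almost wholly Glra2 and Glrb in both fractions. Glra2 (chromosome X, 165129017 to 165327393) encodes the alpha subunit that dominates in the developing nervous system, and it had 90.4 and 38.1 CPM in GFP-positive cells, against 152 and 425 CPM in GFP-negative cells. The groups did not overlap, and the log2 fold change was -2.17 (95% interval -3.46 to -0.87, edgeR adjusted p = 0.155). Glra3, another alpha subunit of the retina, had 4.28 and 2.69 CPM in GFP-positive cells, against 8.05 and 20.3 CPM in GFP-negative cells (log2 fold change -2.02, 95% interval -3.42 to -0.61, edgeR adjusted p = 0.229). Glra1, the adult spinal cord form, stayed between 0.239 and 0.502 CPM in all libraries. Glra4 had 20 counts in GFP-positive replicate 2 and 0 in the other libraries. Of the summed alpha subunit level per kilobase, Glra2 held 97.0 ± 0.371% in GFP-positive cells, against 98.1 ± 0.161% in GFP-negative cells. Glra3 held 1.96 ± 0.535% and 1.69 ± 0.126%, within the spread between replicates. The ratio of Glra2 to Glra3 per kilobase, 61.7 and 41.4 against 55.1 and 61.3, overlapped as well.

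The ratio of the glycine receptor subunits Glra2 and Glrb did not overlap between fractions. Glrb, the gephyrin-binding beta subunit, had 171 and 66.4 CPM in GFP-positive cells, against 153 and 334 CPM in GFP-negative cells, with overlapping fractions (log2 fold change -1.04, 95% interval -2.22 to 0.14, edgeR adjusted p = 0.461). Within a library, the ratio of Glra2 to Glrb per kilobase was 0.782 and 0.849 in GFP-positive cells, against 1.47 and 1.88 in GFP-negative cells. This ratio was 2.04-fold lower in GFP-positive cells, with both GFP-positive libraries below 1 and both GFP-negative libraries above it by all exons. On the log2 scale the difference was -1.03, with SDs of 0.08 and 0.25 within the GFP-positive and GFP-negative libraries (exact permutation test p = 0.333, the smallest possible). A ratio within a library does not depend on how libraries are scaled, but the side of 1 depends on the gene lengths used. With longest-transcript lengths the ratio was 0.509 and 0.552 in GFP-positive libraries and 0.954 and 1.22 in GFP-negative libraries, still separate but under 1 in GFP-negative replicate 2. In all, 11 pairs were compared. Gabrb1 to Gabrb2, Glra2 to Glrb, Gabra2 to Gabra3 and Glra1 to Glra2 had separate fractions, each with an exact permutation p of 0.333 (0.916 after Benjamini-Hochberg adjustment over the pairs), so none passed. Gabra2 to Gabra3 was 1.01 and 1.58 in GFP-positive cells, against 0.335 and 0.918 in GFP-negative cells, and Glra1 to Glra2 rests on 18 or fewer Glra1 counts per library.

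**Figure D4:**
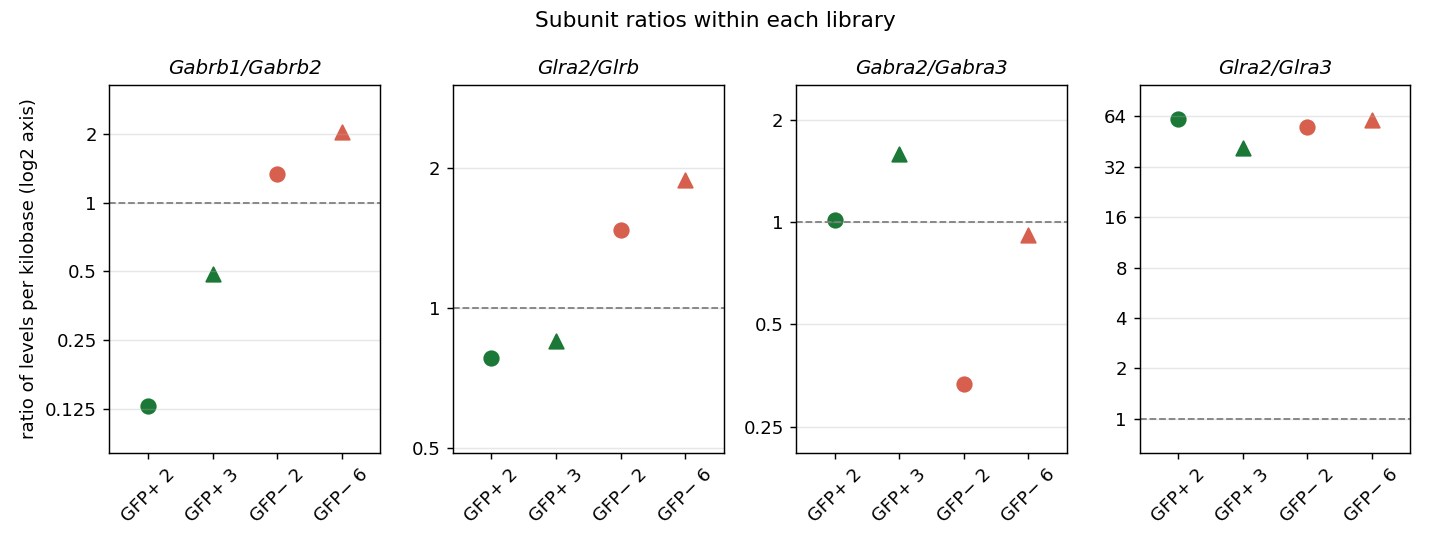
Ratio of levels per kilobase, by the length of all exons, within each library (log2 axes, dashed line at 1) for 4 pairs of subunits, with GFP-positive replicates 2 and 3 in green and GFP-negative replicates 2 and 6 in red. Gabrb1 to Gabrb2 and Glra2 to Glrb lie below 1 in both GFP-positive libraries and above 1 in both GFP-negative libraries, whereas Glra2 to Glra3 lies between 41.4 and 61.7 in all.

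The 6 scaffold and auxiliary genes had a median log2 fold change of -0.43, against -1.72 over the 17 receptor subunits tested, a description with no test. Gphn, which encodes gephyrin, had 88.1 and 73.2 CPM in GFP-positive cells, against 106 and 140 CPM in GFP-negative cells, without overlap (log2 fold change -0.61, 95% interval -1.31 to 0.09, edgeR adjusted p = 0.469). Nlgn2, the adhesion protein gene of inhibitory synapses, had 24.5 and 66.6 CPM in GFP-positive cells, against 36.5 and 52.3 CPM in GFP-negative cells. Lhfpl4, which links GABA-A receptors to neuroligin-2, had 215 and 122 CPM in GFP-positive cells, against 165 and 257 CPM in GFP-negative cells. Clptm1, which holds GABA-A receptors in the endoplasmic reticulum and so limits their surface number, had 331 and 270 CPM in GFP-positive cells, against 327 and 543 CPM in GFP-negative cells. For these 3 the fractions overlapped, and the intervals still allow differences: -1.03 to 1.11 for Nlgn2, -1.21 to 0.56 for Lhfpl4 and -1.39 to 0.32 for Clptm1, on the log2 scale.

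The remaining 2 genes of this group had separate and narrow fractions in opposite directions. Shisa7, an auxiliary subunit of GABA-A receptors, had 13.9 and 10.4 CPM in GFP-positive cells, against 32.3 and 29.3 CPM in GFP-negative cells. Its log2 fold change was -1.35 (95% interval -2.20 to -0.49, edgeR adjusted p = 0.184), and it lay between -1.59 and -1.16 in every alternative run. Iqsec3, an exchange factor for ARF proteins that binds gephyrin, had 107 and 115 CPM in GFP-positive cells, against 71.5 and 69.6 CPM in GFP-negative cells. Replicates differed by 1.08-fold and 1.03-fold, and the fractions by 1.58-fold (log2 fold change 0.66, standard error 0.29, edgeR adjusted p = 0.397). The estimate was between 0.60 and 0.82 in every alternative.

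Ranked by level per kilobase of all exons, the members stood in a different order in the fractions. In GFP-positive cells the order began with Clptm1 (48.4 ± 6.94 RPKM), Lhfpl4 (29.0 ± 11.4), Glrb (25.5 ± 15.8), Gphn (21.5 ± 2.82), Glra2 (20.4 ± 11.7) and Gabrr1 (18.7 ± 6.08 RPKM). In GFP-negative cells it began with Glra2 (91.5 ± 61.4 RPKM), Clptm1 (70.0 ± 24.7), Glrb (52.3 ± 27.5), Gabra3 (48.0 ± 30.1), Lhfpl4 (36.3 ± 11.2) and Gabra2 (36.3 ± 38.6 RPKM). Apart from Clptm1 and Lhfpl4 in GFP-positive cells, neighbours among these first 6 had overlapping ranges, so their order is not settled. By its mean Gabrr1 ranked above every GABA-A subunit analysed here in GFP-positive cells, where its range overlapped that of Gabrb2. In GFP-positive replicate 2, Gabrb2 was the higher (19.6 against 14.4 RPKM). In GFP-negative cells Gabrr1 ranked below Gabra3, Gabra2, Gabra4, Gabrb1 and Gabrg1. With longest-transcript lengths, mean Gabrb2 was above Gabrr1 in GFP-positive cells (19.2 against 18.7 RPKM) and in GFP-negative cells (10.7 against 7.83 RPKM).

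Of 58 other genes, listed from general knowledge of the inhibitory synapse, 55 were tested, and 3 were called by edgeR. All 3 were lower in GFP-positive cells, where 0.870% of all genes tested were called lower. The list includes relatives of members, among them Shisa and Lhfpl genes, so a call need not concern an inhibitory synapse gene. The median log2 fold change of the list was -0.20, against 0.04 over all genes. Lhfpl2, a relative of Lhfpl4, had 25.5 and 6.79 CPM in GFP-positive cells, against 180 and 355 CPM in GFP-negative cells (log2 fold change -4.05 ± 0.64, standard error, edgeR adjusted p = 0.0276). Shisa8, an auxiliary subunit of AMPA-type glutamate receptors and not of GABA-A receptors, had 13.5 and 6.51 CPM in GFP-positive cells, against 82.6 and 133 CPM in GFP-negative cells (-3.43 ± 0.45, edgeR adjusted p = 0.0148). Mdga1, whose protein blocks the binding of neuroligin-2 to neurexins, had 28.5 and 25.0 CPM in GFP-positive cells, against 82.4 and 178 CPM in GFP-negative cells (-2.28 ± 0.41, edgeR adjusted p = 0.0427). None of the 3 passed without GFP-positive replicate 3 (edgeR adjusted p = 0.0936 to 0.294) or without GFP-negative replicate 6 (0.131 to 0.323), and Mdga1 did not pass without GFP-positive replicate 2 (0.128). By list, the calls were 2 of 18 genes listed under trafficking and assembly (Lhfpl2 and Shisa8) and 1 of 18 synapse organisers (Mdga1). The median log2 fold change was -0.07 over 16 chloride transport genes and 0.55 over 3 modulator genes.

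The 4 genes of this list with the highest level per kilobase over all libraries were not called. Hap1, which helps to recycle GABA-A receptors, had 1095 and 633 CPM in GFP-positive cells, against 919 and 1633 CPM in GFP-negative cells. Pfn2 and Pfn1, actin-binding profilins, had 327 and 286 CPM in GFP-positive cells, against 380 and 622 CPM in GFP-negative cells, and 205 and 271 CPM, against 224 and 253 CPM. Of the 4, Pfn2 alone had separate fractions. Gabarapl1, a relative of the GABA-A receptor-associated protein, had 176 and 184 CPM, against 168 and 327 CPM. The cation-chloride cotransporter genes, named after their values were seen, set whether GABA and glycine depolarise or hyperpolarise a cell. Slc12a5, which extrudes chloride in mature neurons, had 326 and 229 CPM in GFP-positive cells, against 393 and 619 CPM in GFP-negative cells, without overlap (edgeR adjusted p = 0.402). Slc12a2, which loads chloride, had 38.3 and 15.5 CPM in GFP-positive cells, against 40.1 and 36.4 CPM in GFP-negative cells (edgeR adjusted p = 0.694). Slc12a5 had the higher level per kilobase in both fractions, at 37.3 against 2.46 RPKM in GFP-positive cells and 67.9 against 3.50 RPKM in GFP-negative cells.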

How the data were processed

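The authors deposited raw read counts per Ensembl gene for 4 libraries. SMART-Seq Ultra Low Input libraries were made from sorted cells, per the labels' protocols. The submitters' processing notes list Trimmomatic, STAR 2.7.3a, MultiQC, limma and GRCm38 without saying what each did. The sources used here give neither the counting tool nor its strand setting. A second table, of scaled values, was not used.

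Fractions were tested in R 4.3.3 by edgeR 4.0.16, after TMM scaling, with filterByExpr (minimum count 10, minimum total 15), glmQLFit (version 4 method, robust), glmQLFTest and Benjamini-Hochberg adjustment over 17940 genes. Each standard error is the size of the log2 fold change divided by the root of its F statistic. Exon lengths came from GENCODE mouse release 21 (GRCm38), and RPKM uses the union of exons. Promoters came from RefSeq (GRCm38.p6). The fitting steps were also run on counts simulated with independent libraries and known changes. Those counts held no outlying library and no mixture of cell types, so that run says nothing about either. The alternatives tried comprised scaling by RLE, by upper quartile or by library size, omitting the filter or tightening it to over 5 CPM (2 or more libraries), limma-voom 3.58.1, DESeq2 1.42.0, the earlier edgeR quasi-likelihood method (added after seeing the data), longest-transcript lengths, a pseudocount of 1 and leaving out each library. No library was a copy of another. Members and lists were chosen with earlier results of these data known. All members are named, with each library's values where a fraction's mean reached 10 CPM, and for Gabrd and Gabrq, chosen after their values were seen; of other genes, those called, the 4 with the highest mean RPKM over all libraries, and the checks Gbx2, Pax6 and Tfap2a. Slc12a5, Slc12a2 and single markers of other cell types were named after their values were seen. P-values measure the spread between these libraries. Floors of 3 counts cover counting error only.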

Additional observations from a re-analysis of the deposited data

How the results depend on the processing

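The count of calls over all genes, 198, was 106 without a filter on low counts, 794 by DESeq2, 131 by limma-voom and 48 by the earlier edgeR method (added after seeing the data), and 1 to 336 when a library was left out. Members called numbered 0, but 2 (Gabra4 and Gabrb1) under RLE scaling, 2 under upper-quartile scaling, 1 (Gabrb1) with library size only, 2 under the stricter filter, 9 by DESeq2 and 0 to 5 when a library was left out. The 5 were called without GFP-negative replicate 2. Other inhibitory synapse genes called numbered 3, but 1 without a filter, 0 by the earlier edgeR method, 5 by DESeq2 and 0 to 4 when a library was left out. Members with separate fractions numbered 13, and 15 to 21 when a library was left out, where the share of all genes with separate fractions was 62.3 to 79.2% in place of 43.8%. With longest-transcript lengths the share of Glra2 was 96.2% in GFP-positive cells, against 97.4% in GFP-negative cells, and that of Glra3 2.74% and 2.38%.

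When a library was left out, log2 fold changes ran from -2.59 to 0.30 for Gabra2, -1.22 to 0.11 for Gabra5, -0.62 to 1.54 for Gabrb2, -5.88 to 0.06 for Gabrd, -0.06 to 0.88 for Gabrr2, -0.90 to 0.22 for Glra1, -0.86 to 0.56 for Nlgn2 and -0.82 to 0.03 for Lhfpl4. Nlgn2 was also at -0.10 by limma-voom. The cause of these shifts was not tested. Differences of log2 ratios spanned -2.87 to 1.27 for Gabrg1 to Gabrg3, -3.28 to 1.90 for Gabrd to Gabra4, -0.09 to 3.30 for Gabrr2 to Gabra2, -0.49 to 0.09 for Glra2 to Glra3, -0.07 to 1.03 for Gphn to Glrb, -0.80 to 0.90 for Glrb to Gabra2 and -0.36 to 1.35 for Nlgn2 to Gphn. No paired analysis was possible because the fractions share only replicate number 2. With 1 library left in a fraction, it is assumed to vary like the other. Library-size scaling moved the median of all genes by 0.17 (log2). For Glra1, Glra4 and Gabre, at 20 counts or fewer per library, depth is itself a limit. Ratios by longest-transcript lengths and marker sums without 1 gene were added after seeing the data.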
